A study of Mus musculus with 38 samples.

Results

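The ectoderm-like long-term culture was compared with freshly sorted ectoderm-like cells, 1 bulk library against 2. These 3 libraries were taken by their labels from the 25 bulk RNA-seq libraries among the 38 samples of the study. By the labels, all cells derive from E14, a mouse embryonic stem cell line of male origin that was held in 2i medium plus LIF before differentiation. Sorted ectoderm-like cells were collected by FACS as PDGFRA-/CD24+ cells after 96 h in N2B27 medium with 0.25 µM retinoic acid (RA), in biological replicates 1 and 2. For the culture, ectoderm-like cells from this sort were placed on poly-D-lysine and laminin in N2B27 with 20 ng/ml EGF and 10 ng/ml FGF2, split with Accutase every 3 to 4 days, and harvested after 5 passages. The culture library is 1 culture without a replicate, the medium, the substrate and the passages changed together, and the labels do not tie it to either sorted replicate.

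Ectoderm gives rise to the neural tube, whose dividing progenitors carry SoxB1 transcription factors (Sox1, Sox2, Sox3), Pax6 and the CD24 surface protein. EGF and FGF2 on laminin are the usual conditions for keeping neural progenitors adherent and dividing. Mesenchymal cells such as fibroblasts and tendon cells, by contrast, are known by the interstitial matrix they secrete: fibrillar collagens, small leucine-rich proteoglycans and matricellular proteins such as periostin.

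Each value is a number of molecules, told apart by a random tag (unique molecular identifier, UMI) that is added to each captured mRNA at its 3′ end. The sorted replicates held 1799301 and 1547817 UMIs and the culture 1868001, within the range of 1063830 to 2459483 over the 25 bulk libraries. Where a gene is given 3 counts, they stand for sorted replicate 1, sorted replicate 2 and the culture, in this order. Counts are also given as CPM, that is scaled to the UMI total of the library. A fold is the CPM of the culture over that of the pooled sorted libraries, with an exact 95% interval that covers counting error only. Where no UMI was found in a group, a floor of 3 UMIs over that group took its place and the fold is a bound.

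Some libraries stood apart in ways that touch the results. Sorted replicate 2 held more endoderm transcripts than replicate 1, for example 374 against 55 UMIs of Dab2 and 283 against 76 of Ttr, and its Pdgfra count was 57 against 6. The culture library differed in its Y-linked transcripts. Over 43 genes of the Y chromosome it held 7 UMIs, where the sorted replicates held 155 and 140. The other 22 bulk libraries had between 40.0 and 155 CPM from these genes, with a median of 101, and the culture had 3.75. Eif2s3y gave 52, 61 and 3 UMIs in replicate 1, replicate 2 and the culture, Ddx3y 43, 41 and 1, and Uty 30, 24 and 0. Xist, the transcript that coats an inactive X chromosome, was counted 14, 8 and 1 times. By chromosome, the median log2 fold of the genes tested lay between -0.36 on chromosome 7 and 0.26 on chromosome 15 for the 19 autosomes, and at -0.16 on the X. Whether the culture had lost its Y chromosome or had another origin was not tested.

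Genes were called in 2 ways. Under a fold rule, a gene with at least 20 UMIs over the 3 libraries was called higher where the culture had at least 2 times the CPM of each sorted library and the interval of the ratio to the nearer one lay above 1, and lower in the mirrored case. By this rule 1176 of 9586 genes were higher (12.3%) and 752 were lower (7.84%). Between the sorted replicates themselves, 888 of these genes (9.26%) differed at least 2-fold with an interval that left out 1, in either direction. The second call used edgeR, which estimated the spread from 3 replicated groups (mESCs and both kinds of sorted cells) and took the single culture to vary like them. It called 672 of 10658 genes higher (6.31%) and 413 lower (3.88%) at an adjusted p under 0.05. Both rules called 657 genes higher (6.9% of the 9518 genes that both examined) and 395 lower (4.15%), which is 97.8% and 95.6% of edgeR's own calls, and 0 genes were called in opposite directions. Without sorted replicate 1 edgeR called 332 higher and 260 lower, and without replicate 2 it called 310 and 147.

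**Figure D1:**
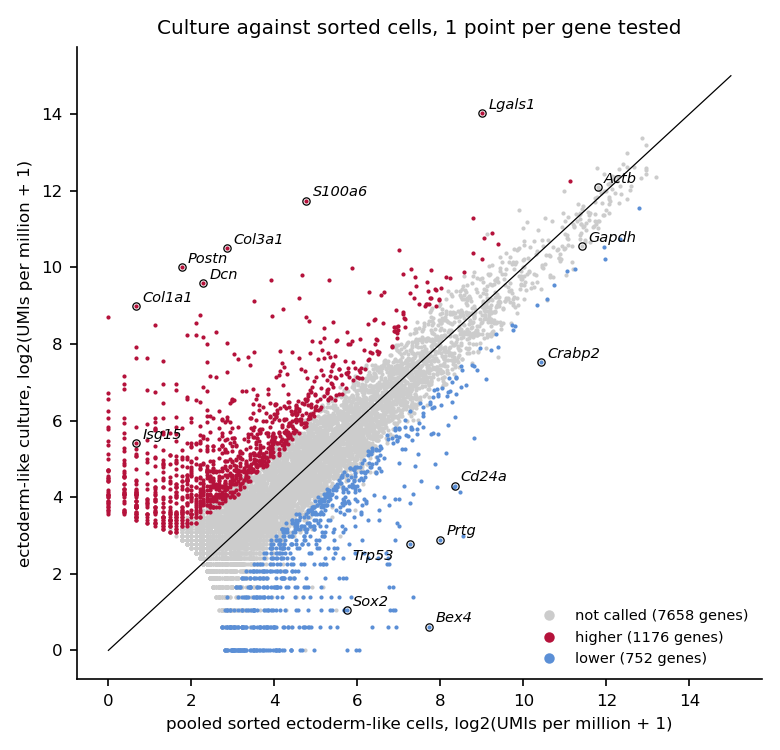
Each point is 1 of the 9586 genes tested, with the pooled sorted ectoderm-like cells on the horizontal axis and the culture on the vertical axis, both as log2(CPM + 1). Red points were called higher (1176 genes) and blue points lower (752 genes) by the fold rule, and the line marks equal values. The matrix genes Col3a1, Postn, Dcn and Col1a1 lie far above the line, and Bex4, Trp53, Prtg and Sox2 far below it.

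The most marked gain was in interstitial matrix. Postn, which encodes periostin, had 8 and 0 UMIs in the sorted replicates and 1924 in the culture (4.45, 0 and 1030.0 CPM), a 431-fold difference with an interval of 218 to 999.6, and 232-fold without sorted replicate 2. Dcn, the proteoglycan decorin that binds collagen fibrils, had 5, 8 and 1440 UMIs (198-fold, 116 to 374). Col3a1, the chain of type III collagen, had 12, 9 and 2712 UMIs (231-fold, 151 to 374). The counts in the sorted cells lay within the range found elsewhere: over the other 22 bulk libraries, mESCs included, Postn had 0 to 8 UMIs, Dcn 0 to 9 and Col3a1 1 to 17, a median of 0.228%, 0.18% and 0.294% of the culture's CPM. The edgeR log2 differences were 8.68 (SE 0.69, adjusted p = 6.35e-06) for Postn, 7.54 (SE 0.45, adjusted p = 7.42e-07) for Dcn and 7.78 (SE 0.46, adjusted p = 7.42e-07) for Col3a1. On GRCm38, Postn lies on chromosome 3 from 54361109 to 54391037, Dcn on chromosome 10 from 97479609 to 97518143 and Col3a1 on chromosome 1 from 45311538 to 45349706.

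The counts of the 2 chains of type I collagen went apart. Col1a1, on chromosome 11 from 94936224 to 94953042, had 0, 2 and 946 UMIs, an 848-fold difference whose interval is wide (234 to 7009) because it rests on 2 UMIs in the sorted cells (edgeR adjusted p = 2.08e-05). It was 392-fold without sorted replicate 1 and at least 304-fold without replicate 2. The other 22 bulk libraries had 0 to 18 UMIs of Col1a1, the 18 in an mESC library. Col1a2, whose product joins that of Col1a1 in the type I triple helix, had 13 and 7 UMIs in the sorted cells and 2 in the culture, and neither rule called it (edgeR adjusted p = 0.273). The other 22 bulk libraries had 0 to 25 UMIs of Col1a2, while the culture held the partner chain at 506 CPM. Since Col1a2 was low in every bulk library, poor capture of its transcripts cannot be told apart from low expression.

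Of the 39 interstitial matrix genes listed, 35 had enough UMIs to be tested, and the fold rule called 30 higher and 0 lower, against 12.3% and 7.84% of all genes. The median log2 fold of the 35 was 5.71, against -0.01 over all genes tested, and 4 of the 35 values are bounds. By edgeR 29 of 36 rose and 0 fell. Genes at or near 0 in the sorted cells could pass the minimum only through the culture, and 6 of the 39 had no UMI in either sorted library. Small leucine-rich proteoglycans were not tested as a group. Of their genes, Ogn (osteoglycin) had 770 UMIs in the culture and 0 in both sorted libraries, at least 459.9-fold higher, and Fmod (fibromodulin) had 196 against 0, at least 117-fold. With only 1 sorted library these bounds fall to at least 213-fold for Ogn and 54.1-fold for Fmod. Aspn (asporin) had 0, 2 and 450 UMIs, Lum (lumican) 0, 1 and 211, and Bgn (biglycan) 1, 0 and 265. The beaded-filament collagen VI was present in all its main chains, with 369 UMIs of Col6a1, 112 of Col6a2 and 75 of Col6a3, against sums of 3, 1 and 0 in the sorted libraries. Among matricellular genes, Tnc (tenascin C) had 1, 1 and 366 UMIs, and Mgp, which inhibits calcification, 0, 1 and 231. C1qtnf3, a secreted protein, had 1, 3 and 675. Sparc, by contrast, was not called: it had 411 and 1447 UMIs in the sorted replicates and 3477 in the culture, and sorted replicate 2 alone held over 3 times the count of replicate 1. Fn1 (fibronectin) was called higher at 6.67-fold, and Vcan, at 1.13-fold, was not called.

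**Figure D2:**
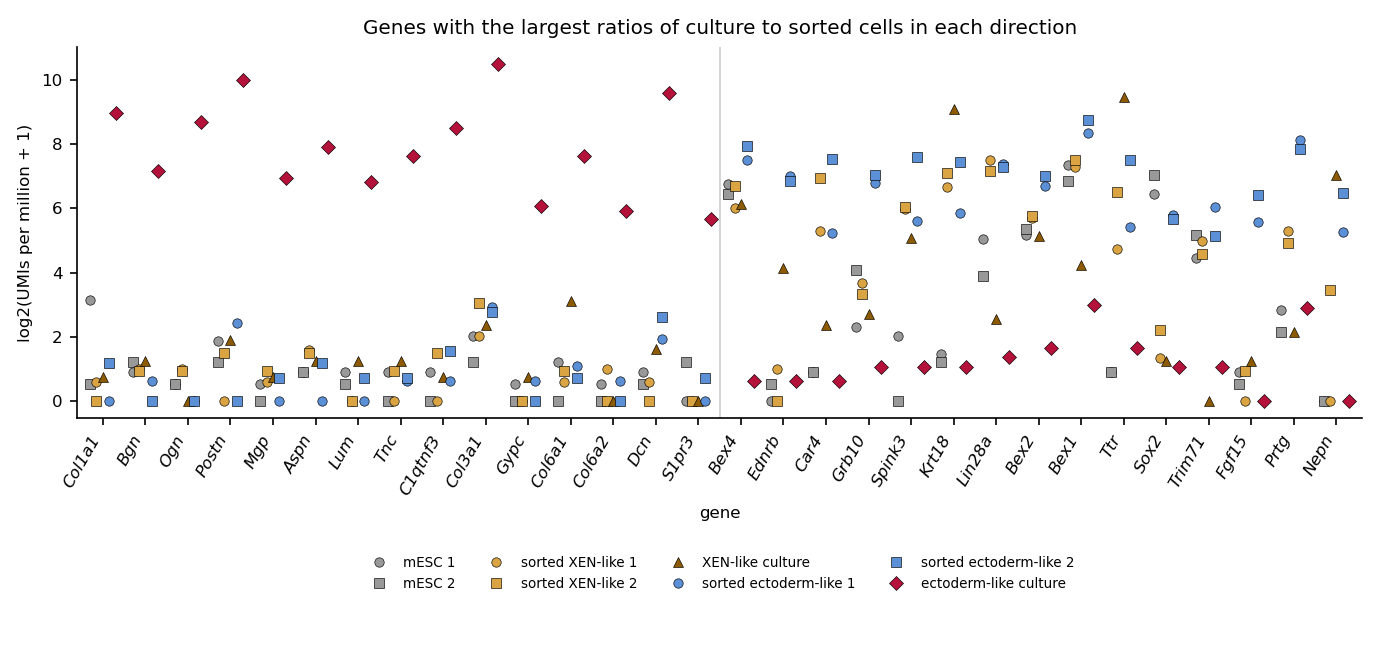
Values of the 15 genes with the largest and the 15 with the smallest fold among those that both rules called, as log2(CPM + 1) in 8 libraries, ordered by fold. Left of the grey line, the culture (red diamonds) lies above every other library shown for all 15 genes. Right of it, the culture lies below both sorted ectoderm-like libraries (blue), while the XEN-like culture (brown triangles) is as high as or higher than they are for Krt18, Ttr and Nepn.

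Genes that fold, cross-link and cut matrix went with it. Of 18 tested collagen-processing genes, 11 were higher and 0 lower (median log2 fold 1.53), where 12.3% and 7.84% of all genes were, shares against which the next counts can also be read. Pcolce, which enhances removal of the procollagen C-propeptide, had 19, 28 and 1524 UMIs, and Fkbp10, a collagen chaperone of the endoplasmic reticulum, 4, 5 and 175. P4hb, the shared subunit of prolyl 4-hydroxylase, had 2.50 times the CPM of the sorted cells (2.27 to 2.75, edgeR adjusted p = 0.0237, a call lost without either sorted replicate). The cross-linking enzyme gene Lox had 38 UMIs against 0. Of 12 tested proteases and inhibitors, 8 were higher and 0 lower, among them Mmp2 (11, 4 and 265 UMIs), Mmp14, which activates it (4, 3 and 81), and the inhibitor Timp1 (47, 40 and 780). Matrix receptors were higher in 8 of 12 and lower in 1: Itgb1, the beta subunit shared by most collagen and laminin receptors, had 141, 140 and 732 UMIs, and Cd44, a hyaluronan receptor, 7, 6 and 89.

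Basement membrane genes were called at shares not far from those of all genes (12.3% and 7.84%). Of 12 tested, 2 were higher (Nid1, 10, 12 and 161 UMIs, and Lama4, 1, 1 and 30), 2 were lower and 8 were not called. The lower ones were Lama1, the laminin chain of early embryonic basement membranes (51, 113 and 8), and Col18a1 (199, 90 and 45). Col4a1 had 61.7 and 158 CPM in the sorted replicates and 165 in the culture, which lay above both but close to replicate 2, and it was not called (edgeR adjusted p = 0.674).

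Transcription factors of connective tissue were counted in the culture. Scx (scleraxis), a tendon transcription factor, and Tnmd, a late tendon gene, were picked for mention because of their values. Scx had 139 UMIs in the culture, 0 in both sorted libraries and 0 to 3 in the other 22 bulk libraries. Tnmd had 123, 0 and at most 1. Mkx, another tendon factor, had 0, 2 and 30 UMIs, and up to 11 in the other bulk libraries. Prrx1, a factor of limb and craniofacial mesenchyme, had 100 against 0 in both sorted libraries and at most 2 elsewhere. Of 10 tested genes of the cadherin switch and epithelial to mesenchymal transition, 7 were higher by the fold rule, against 12.3% of all genes, and by edgeR 4 of 12, against 6.31%. Snai2 had 4, 7 and 78 UMIs, Zeb1 27, 18 and 88, and Cdh11, the mesenchymal cadherin, 13, 8 and 118. Twist1 was present before culture, with 32 and 16 UMIs against 77 in the culture (up to 22 in the other bulk libraries), and passed the fold rule only (edgeR adjusted p = 0.0884). The epithelial cadherin Cdh1 fell from 19 and 20 UMIs to 1, and the neural cadherin Cdh2 had 157, 114 and 87, with no call.

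Cytoskeletal genes of contractile cells gave 8 higher and 1 lower of 14 tested (12.3% and 7.84% of all genes). Scaled to Gapdh, 12 were higher and 1 lower, where 3274 and 258 of all 9586 genes tested were. Vim (vimentin) had 304, 475 and 1295 UMIs, and Lmna (lamin A) 6, 1 and 104. Acta2, smooth muscle actin, had 1232 in the culture against 46 and 283, or 25.6 and 183 CPM against 659.5, and its edgeR adjusted p was 0.0278, a call that DESeq2 did not make. Tagln, also of smooth muscle, had 86, 361 and 277, and the culture lay between the replicates. Lgals1, a galectin of mesenchymal and other cells singled out after its value was seen, had 935, 780 and 31270 UMIs. That is 0.052%, 0.0504% and 1.67% of the library, a 32.7-fold difference (31.1 to 34.3). The calcium-binding genes S100a6 (50, 38 and 6391) and Anxa1 (27, 54 and 1676) were also higher, and the XEN-like culture held 2870 and 213 of them.

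More neural progenitor transcription factors were lower than higher. Of 16 tested neural progenitor transcription factors, 9 were lower and 2 higher by the fold rule (7.84% and 12.3% of all genes), with a median log2 fold of -2.48. By edgeR 6 of 18 were lower and 1 higher (3.88% and 6.31% of all genes). Sox1, the earliest SoxB1 marker of neural plate, had 47, 35 and 0 UMIs (at least 15.3-fold lower). Sox2 had 99, 78 and 2 (49.4-fold lower, 13.5 to 411, edgeR adjusted p = 3.54e-04), and Sox3 and Sox21 gave 0 in the culture against sums of 28 and 32. Pax6 had 84, 33 and 7, Pou3f2 13, 28 and 0, and Hes5, a Notch effector, 17, 11 and 0. At this depth a count of 0 in the culture allows up to 1.61 CPM. Lhx2, with 9, 0 and 33 UMIs, was higher by the fold rule only (edgeR adjusted p = 0.11). Sox4 (104, 68 and 133) and Zic2 (138, 66 and 89) were not called.

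Among neural progenitor effectors the picture was mixed, with 10 lower, 4 higher and 8 not called of 22 tested (7.84% and 12.3% of all genes lower and higher). Prtg, protogenin of the early neural tube, fell from 501 and 353 UMIs to 12 (39.7-fold, 22.6 to 77.2). Cd24a, which encodes the marker of the sort, fell from 483 and 600 to 35 (edgeR adjusted p = 0.00173), to 18.7 CPM. Pdgfra, the marker that the sort excluded, had 6, 57 and 43 UMIs, with no call. Ednrb, an endothelin receptor of neural crest and glial progenitors, fell from 229 and 179 to 1, and the secreted Wnt modulator Sfrp2 from 77 and 55 to 2. Nes (52, 38 and 64), Prom1 (51, 43 and 44) and Fabp5 (570, 817 and 827) were not called. The growth factor gene Ptn and the adhesion gene Ncam1 were higher, with 210, 104 and 1155 UMIs of Ptn (edgeR adjusted p = 7.19e-04) and 80, 28 and 359 of Ncam1. Mdk, the only relative of Ptn in its family, had 1897, 826 and 1013, within the spread of the replicates.

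**Figure D3:**
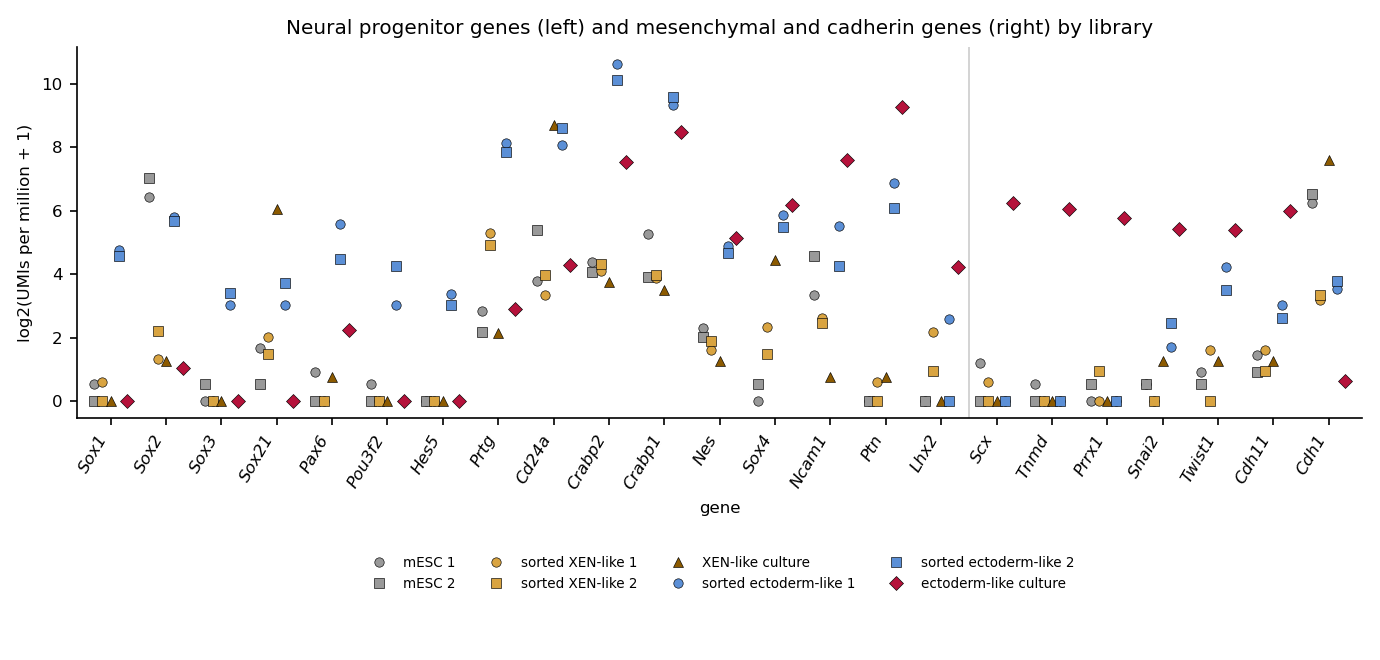
Neural progenitor genes left of the grey line and mesenchymal and cadherin genes right of it, as log2(CPM + 1) in 8 libraries. The culture is at 0 for Sox1, Sox3, Sox21, Pou3f2 and Hes5, near the sorted ectoderm-like libraries for Nes and Sox4, and above all others for Ptn, Ncam1, Scx, Tnmd and Prrx1.

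Markers of other cell types were examined next, to be read against the 12.3% of all genes that were higher and the 7.84% that were lower. Neural crest specifiers were few: of 22 genes 7 could be tested, 3 of them higher by the fold rule only (Tfap2a, Zic1 and Ets1, at 36, 25 and 36 UMIs) and 1 lower (Ednrb), and 8 of the 22 had no UMI in the culture. By edgeR, Ednrb was lower and Dlx1, which had too few UMIs for the fold rule, was higher (0, 0 and 19), a call lost without either sorted replicate. Neuronal genes gave 1 lower of 6 tested, Gap43, and 11 of 18 were at 0 in the culture. Of 19 mesoderm genes 4 could be tested, and Meox1 (59, 6 and 165 UMIs), Foxc1 (2, 1 and 26) and Twist1 were higher. The blood list gave Cd34, which fibroblasts and endothelium also carry (2, 2 and 51), as higher and the embryonic globin gene Hbb-y (17, 35 and 0) as lower, with 9 of 12 genes at 0 in the culture. The only muscle gene tested, Actc1 (8, 46 and 0), was lower, the only glial gene called, Cd44, was higher, and the endothelial list summed to 5.89 CPM in the culture against 7.78 and 20.0 in the sorted replicates. In the skeletal list, Col11a1 (9, 5 and 345) and Spp1 (44, 34 and 1105) were higher, Col2a1 of cartilage (31, 18 and 8) and Alpl of bone (21, 14 and 0) were lower by the fold rule, and Runx2 was not called. The summed level of the endoderm list was 303 and 974 CPM in the sorted replicates and 161 in the culture, with 9 of 15 tested genes lower. All 5 tested genes of surface epithelium were lower, Krt18 from 102 and 266 UMIs to 2. Relative to Gapdh 3 of these 5 were lower, where 258 of all 9586 genes tested were. The epithelial list summed to 157 and 448 CPM in the sorted replicates and 12.3 in the culture. It was higher in sorted XEN-like cells (477 and 573 CPM) and in the XEN-like culture (2694), so it is not particular to ectoderm-like cells. In a bulk sample, fewer cells of a type and less RNA per cell cannot be told apart.

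Many readouts of growth factor signalling were higher. Of 20 tested ERK feedback and immediate early genes, 13 were higher and 0 lower by the fold rule (median log2 fold 2.35), against 12.3% and 7.84% of all genes, and edgeR called 10 higher and 0 lower, against 6.31% and 3.88%. Feedback inhibitors of the receptor tyrosine kinase pathway were among them: Spry4 had 3, 1 and 199 UMIs, Spry2 19, 16 and 410, and the ERK phosphatase gene Dusp6 123, 57 and 475. The ETS factors Etv4 (2, 1 and 55) and Etv5 (6, 4 and 44) went the same way. Of the immediate early genes, Egr1 had 21, 1 and 78 and passed both rules, while Fos (44, 10 and 56), Jun and Myc passed neither. Among the receptors of the added factors, Egfr had 0, 2 and 104 UMIs (93.2-fold, 25.2 to 779.6, edgeR adjusted p = 1.56e-04), a fold of 43.1 without sorted replicate 1 and of at least 33.4 without replicate 2. Fgfr1 had 70, 25 and 134 and was not called, and Fgfr2 had 54, 17 and 5, lower by the fold rule only. The embryonic FGF ligand gene Fgf15 fell from 85 and 130 UMIs to 0. In the YAP and TGF-beta list 5 of 13 were higher by the library total, with Tgfbi (2, 7 and 564) and the ligand gene Tgfb3 (2, 1 and 206), while the YAP targets Ctgf and Cyr61 were not called. Relative to Gapdh 8 of the 13 were higher, as were 3274 of all 9586 genes tested.

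Genes of the RA response were compared next, since the labels list no RA among the additions to the culture medium. Of 18 tested, 7 were lower and 4 higher by the fold rule (7.84% and 12.3% of all genes), and edgeR called 3 lower and 2 higher of 21. With values taken relative to Gapdh 2 were lower and 7 higher, where 258 and 3274 of all 9586 genes tested were. Cyp26a1, the RA-degrading enzyme that RA itself induces, had 58, 33 and 2 UMIs, Crabp2, an RA carrier protein, 2862, 1721 and 342, and the retinol receptor gene Stra6 80, 35 and 13. Rarb, another direct RA target, had 45, 14 and 55 and was not called. The RA-producing enzyme gene Aldh1a3 was higher (0, 0 and 29), while Aldh1a2 gave 14, 7 and 0. Of 16 tested Hox genes 3 were higher and 2 lower, not far from the shares of all genes (12.3% and 7.84%). Relative to Actb 2 were higher and 3 lower, where 864 and 1259 of all 9586 genes tested were. The anterior Hoxb2 had 700, 181 and 285 UMIs, or 389, 117 and 153 CPM, so the culture lay between the replicates. The posterior Hoxa10 had 1, 1 and 33 (edgeR adjusted p = 0.00646, lost without sorted replicate 1 and by DESeq2).

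Trp53, which encodes the p53 tumour suppressor, was nearly absent from the culture. It had 297 and 218 UMIs in the sorted replicates and 11 in the culture, 26.1-fold lower (14.5 to 52.7, edgeR log2 difference -4.74, SE 0.49, adjusted p = 4.57e-05). The other 22 bulk libraries had 56 to 884 UMIs, and in CPM the culture ranked 25 of 25. The gene lies on chromosome 11 from 69580359 to 69591873. Its neighbour Wrap53 had 37, 29 and 26 UMIs and was not called. Many direct targets of p53 were lower as well. Cdkn1a, the p21 cell cycle inhibitor, fell from 155 and 202 UMIs to 7, Ccng1 (cyclin G1) from 436 and 368 to 34, Eda2r from 98 and 91 to 3, and Trp53inp1 from 207 and 134 to 9. The pro-apoptotic Bax fell from 420 and 347 to 150 (edgeR adjusted p = 0.0126, lost without sorted replicate 2). Of the 15 tested genes in the list of p53 targets and CDK inhibitors, 11 were lower, Trp53 itself among them, and 3 higher by the fold rule, against 7.84% and 12.3% of all genes. Relative to Gapdh 7 were lower and 3 higher (258 and 3274 of all 9586 genes tested), and edgeR called 8 lower and 2 higher of 16.

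The 3 higher genes of that list encode CDK inhibitors of the INK4 and CIP/KIP families. Cdkn2a, the locus of p16 and p19ARF, had 21, 17 and 99 UMIs (edgeR adjusted p = 0.0283, a call lost without either sorted replicate and by DESeq2), and its neighbour Cdkn2b (p15) 3, 5 and 68. Counting did not separate the p16 and p19ARF transcripts of Cdkn2a. Cdkn1b (p27) had 10, 13 and 42 (adjusted p = 0.0686). In genes of the dividing cell, 1 of 20 S phase and 1 of 24 mitotic genes were lower and 0 higher, against 7.84% and 12.3% of all genes, and summed over each list the culture had 0.69 and 0.789 times the CPM of the pooled sorted cells. The S phase list had a median log2 fold of -0.79. Of its genes 2 were higher and 0 lower relative to Gapdh, where 3274 and 258 of all 9586 genes tested were. Relative to Actb these were 0 and 7 (864 and 1259 of all genes), and with TMM factors 0 and 3 (1102 and 843). Mcm7 (509, 438 and 183) and Ttk (78, 49 and 29) were the ones lower by the library total, and Cdk1 had 453, 377 and 506.

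**Figure D4:**
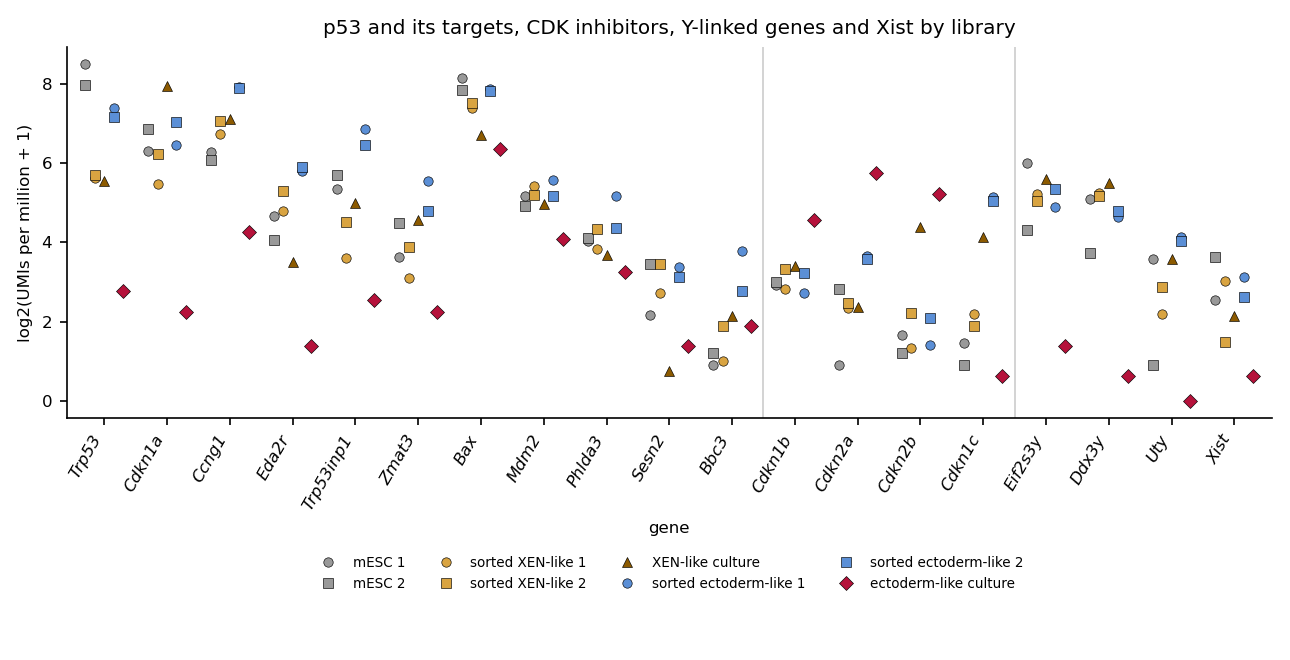
Trp53 and p53 targets left, CDK inhibitors between the grey lines, and Y-linked genes with Xist right, as log2(CPM + 1) in 8 libraries. The culture (red diamonds) lies below both sorted ectoderm-like libraries for every gene except Cdkn1b, Cdkn2a and Cdkn2b.

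Oncofetal and imprinted genes were read next. Lin28a, an RNA-binding protein that blocks let-7 maturation, fell from 298 and 240 UMIs to 3, and Lin28b from 51 and 26 to 1. Of the 8 oncofetal genes 6 were lower and 0 higher by both rules (4.15% and 6.9% of all genes), Igf2bp1 (577, 362 and 64) and Hmga1 among them, and Trim71, a let-7 target, fell from 116 and 53 to 2. Imprinted genes went both ways, 8 higher and 6 lower of 21 by the library total (12.3% and 7.84% of all genes). With TMM factors 7 were higher and 8 lower, where 1102 and 843 of all 9586 genes tested were. H19, a long non-coding RNA, had 22, 13 and 1040 UMIs, whereas its reciprocally imprinted neighbour Igf2 had 125, 181 and 18 (edgeR adjusted p = 5.12e-06 and 0.00149). Grb10 fell from 196 and 203 to 2, Cdkn1c from 62 and 49 to 1 and Peg3 from 268 and 142 to 17. Mest had 793, 679 and 2474, but it overlaps Copg2 (355, 320 and 977), from which it may not be separable. The X-linked genes Bex4, Bex1 and Bex2, of a family of near copies that was not counted as a whole, were among the 15 lowest ratios. Bex4 fell from 329 and 378 UMIs to 1, Bex1 from 582 and 661 to 13 and Bex2 from 186 and 200 to 4.

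Of the pluripotency list, 6 of 11 tested genes were lower and 1 higher (7.84% and 12.3% of all genes). Scaled to Gapdh, 4 were lower and 1 higher (258 and 3274 of all 9586 genes tested). Sall4 had 232, 114 and 7 UMIs, and Dppa5a, a naive-state gene, 888, 422 and 227. Nanog was still counted 116 times, against 368 and 122, with no call. Klf2 was the one that rose (7, 8 and 96), and it is also active in cells outside the pluripotent state. Id2, a BMP-responsive inhibitor of bHLH factors, fell from 591 and 594 to 31, but Id3 (1097, 608 and 715) did not pass. The glucose transporter genes Slc2a1 and Slc2a3 fell, Slc2a1 from 257 and 167 to 16 and Slc2a3 from 364 and 713 to 34. Of 18 tested genes of glycolysis and hypoxia, 2 were higher, 4 lower and 12 not called (12.3% and 7.84% of all genes higher and lower). The calls became 5 higher and 2 lower relative to Gapdh (3274 and 258 of all 9586 genes tested). They became 0 and 5 relative to Actb (864 and 1259 of all genes). Gapdh itself had 2689 and 2769 CPM in the sorted replicates and 1494 in the culture, so that scaling to it raises the median of all genes by 0.87 on the log2 scale. In the cholesterol list 3 of 19 were higher, led by Fdps (933, 830 and 3250), against 12.3% of all genes, and 14 relative to Gapdh, where 3274 of the 9586 genes tested were higher. The median log2 fold of the list was 0.59, and its summed CPM was 1.95 times that of the pooled sorted cells. Lysosomal genes gave 8 higher and 0 lower of 17 (12.3% and 7.84% of all genes), with Grn (64, 112 and 587) and Cd63 (507, 961 and 4704). Relative to Gapdh 14 were higher and 0 lower, where 3274 and 258 of all 9586 genes tested were.

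Interferon-inducible and antigen presentation genes were mostly higher. Of 12 tested, 8 were higher and 1 lower by the fold rule (12.3% and 7.84% of all genes), and edgeR called 8 and 1 of 14 (6.31% and 3.88%). B2m, the light chain of class I MHC, had 210, 308 and 1859 UMIs (6.43-fold, 5.83 to 7.10, edgeR adjusted p = 0.00323). Its heavy chains H2-K1 (43, 27 and 31) and H2-D1 (110, 53 and 79) were not called, and their reads may be shared among near copies. Isg15, a ubiquitin-like interferon-induced protein, had 2, 0 and 77, Ifit1 1, 0 and 30, and the transcription factor gene Irf1 20, 3 and 85. The Ifitm genes split, with Ifitm3 higher (449, 279 and 1807) and Ifitm1 lower (624, 198 and 92). Of secreted immune factors singled out after seeing their values, Ccl2 had 4, 7 and 560 UMIs and Tslp 0, 0 and 173.

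Since 8 of the 12 were higher, promoters of the list were read for the core of the interferon-stimulated response element, a pair of GAAA runs with any 2 bases between them (GAAA, N, N, GAAA), on either strand and overlaps included. Of 15 genes of the list with a promoter in the RefSeq table of GRCm38.p6 (250 bases before to 50 after the start), 7 held a match, as did 3.25% of the 7178 tested genes with an entry and 3.44% of all 32851 promoters. Of these, 5 were called higher (B2m, Ifitm2, Ifitm3, Isg15 and Ifit1) and the other two, Ifit3 and Bst2, had too few UMIs to be tested. No match was found for Irf1 and Tapbp, which were also called higher, for Ifitm1, which was lower, or for the uncalled H2-K1, H2-D1 and Psmb9. The stretches around the matches of 3 of the called genes are shown 5′ to 3′ along the gene, none of them reaching past the start of transcription, with the matched letters, read as such or as their reverse complement, in capitals, from chr4:156200850-156200921 (minus strand) for Isg15, where 3 matches overlap, from chr19:34640760-34640838 (plus) for Ifit1 and chr2:122147523-122147582 (plus) for B2m.
Isg15: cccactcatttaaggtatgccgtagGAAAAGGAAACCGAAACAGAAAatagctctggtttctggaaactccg
Ifit1: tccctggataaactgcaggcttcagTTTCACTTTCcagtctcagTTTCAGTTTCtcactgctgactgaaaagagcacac
B2m: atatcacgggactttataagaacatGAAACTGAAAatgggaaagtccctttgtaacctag
A match describes the sequence and does not show that a factor was bound. The list was drawn up largely from interferon-inducible genes, so its share of matches reflects that choice and was no test of the culture.

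**Figure D5:**
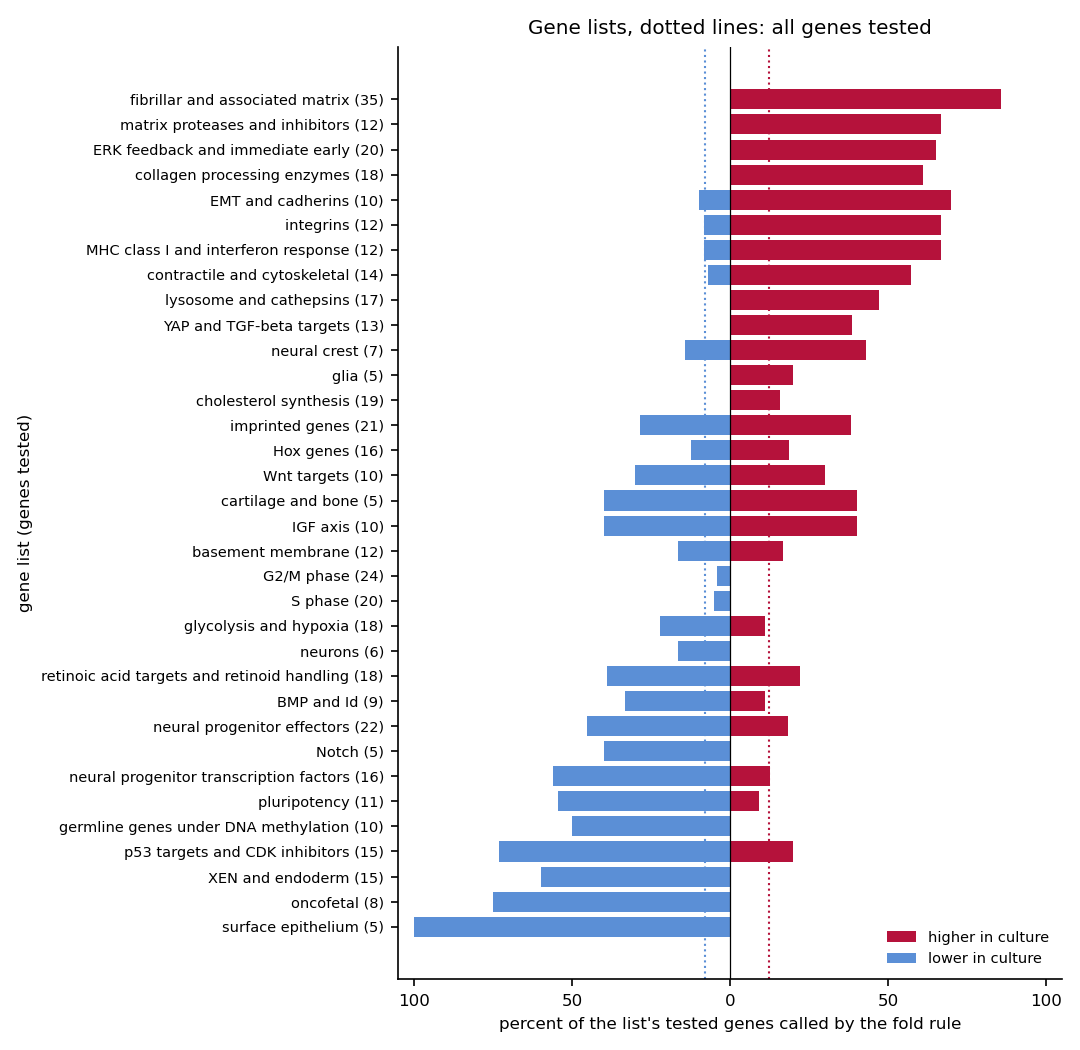
For each list with at least 5 genes tested, the percent of tested genes called higher (red, to the right) or lower (blue, to the left) in the culture by the fold rule, with the number of genes tested in brackets. The dotted lines mark 12.3% and 7.84%, the shares over all genes tested. The interstitial matrix list reaches furthest right, and the epithelial, oncofetal, endoderm and p53 lists furthest left.

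The matrix genes were then sought in single cells at the time of the sort. There were 137 SCRB-seq cells with more than 2000 UMIs from the whole culture at 96 h of RA (median 4028 UMIs). Postn and Dcn were in 0 of them, with an exact 95% interval of 0% to 2.66% for either gene. This limits cells with a UMI and not cells that express the gene, since most transcripts of a cell are not captured. Col1a1 was in 2 cells (1.46%, exact 95% interval 0.177% to 5.17%) and Col3a1 in 15 (10.9%, 6.26% to 17.4%). In mESCs all 4 were in 0 of 282 cells, although bulk mESCs held a few UMIs of them, 18 of Col1a1 in replicate 1. Depth was alike by the median only (3938.5 UMIs in mESCs), with 1884093 UMIs over the 282 mESCs and 726759 over the 137 cells. Cells are named by plate well rather than by barcode, so shared barcodes could not be counted. Any of the 4 was in 16 of the 137 cells (11.7%, 6.82% to 18.3%), and Col3a1 supplied 24 of their 26 UMIs. Among the 70 of these cells with more than 4000 UMIs it was in 13 (18.6%, 10.3% to 29.7%). Scx, Tnmd and Fmod were in 0 of the 137 cells and Ogn and Prrx1 in 1 each. Ptn was in 22 cells (16.1%) and Twist1 in 17 (12.4%), against 1 mESC (0.355%) for either gene. Ogn and Prrx1 were also found in 8 and 6 of the 282 mESCs (2.84% and 2.13%), a share above that at 96 h. The cells of each time point come from 1 sample and are no replicates, so the intervals cover the sampling of cells only. Those at 96 h were not sorted, and Pdgfra was in 50 of the 137, so a cell with Col3a1 need not be ectoderm-like. Whether the matrix-rich culture grew from a minority of the sorted cells was not tested.

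The culture of XEN-like cells, sorted after the same RA exposure and kept in the same medium but as floating aggregates, was set beside it. Against its own sorted cells it had 1657 genes higher (18.4%) and 946 lower (10.5%) of 8993 by the fold rule. Of the 1176 genes higher in the ectoderm-like culture 286 were also higher there, 24.3% of the one list and 17.3% of the other, and of the 752 lower genes 148 were also lower, 19.7% and 15.6%. In opposite directions, 84 genes were lower in the ectoderm-like and higher in the XEN-like culture (11.2% and 5.07%), and 28 were higher in the former and lower in the latter (2.38% and 2.96%). The matrix markers were not among the shared ones: Postn, Dcn, Col3a1 and Col1a1 had 4, 3, 6 and 1 UMIs in the XEN-like culture. A test of the difference between both culture effects in 1 edgeR fit of 8 libraries called 669 of 11231 genes (5.96%). Col3a1 was one of them (difference 8.04 on the log2 scale, SE 0.87, adjusted p = 2.72e-04), whereas Postn, Dcn and Col1a1 did not pass (adjusted p = 0.115, 0.185 and 0.231), their counts on the XEN side being 0 to 4. Trp53 had 95 and 56 UMIs in sorted XEN-like cells and 66 in their culture, and Cdkn1a 85, 81 and 356. S100a6 went from 41 and 17 UMIs in sorted XEN-like cells to 2870 in their culture, so a high count of it was common to both cultures.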

How the data were processed

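Bulk RNA was sequenced with a 3′ UMI protocol. Per the labels and the study's methods, the authors used BWA 0.7.4 against RefSeq transcripts of the mouse (mm10) and deposited raw counts of distinct UMIs per gene and library, and likewise UMI counts per single cell, with no normalization. Near copies and overlapping genes may be counted imperfectly by such alignment to transcripts. Rn45s and Gkn2, whose entries hold the 3 values of the table that are not whole numbers, were left out of every library, which left 23479 genes, and 0 columns were unused for want of a sample. Depth was 1063830 to 2459483 UMIs per bulk library.

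Ratios of CPM carry exact conditional (Clopper-Pearson) 95% intervals, and 20 UMIs over the 3 libraries were required. A quasi-likelihood test in edgeR 4.0.16 (R 4.3.3, TMM factors, filterByExpr, Benjamini-Hochberg over all genes kept) was fitted on 7 libraries with group as the only term. It has 3 residual degrees of freedom, and the biological coefficient of variation was 0.254. Where the labels call sorted samples biological replicates, nothing more is said of their origin. Standard errors were the log2 difference over the root of the F statistic. The scripts were tested on simulated data. Tables were handled with Python 3.11.15, pandas 2.3.3, numpy 2.4.6, scipy 1.17.1 and matplotlib 3.10.9. Coordinates are those of GENCODE M21.

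The genes and the 42 lists were chosen with earlier results of these data known. Named genes were the 4 markers, the 15 highest and 15 lowest ratios called by both rules (at least 50 UMIs in the culture, or in each sorted library), and members of the lists with the 4 of highest mean CPM in each. The list members described beyond those 4, and the genes said to be singled out, were chosen after their values were seen. Alternatives were other scalings, filters, folds, DESeq2 1.42.0 and leaving out each replicate. Some genes that the lists count are not reported here by name.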

Additional observations from a re-analysis of the deposited data

Results flagged for a closer look

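Of the 30 marker and ranked genes, 16 differed between the ectoderm-like and the XEN-like culture in their effect of culture, by a test added after the data were seen (edgeR, 8 libraries, adjusted p under 0.05 over all genes), against 5.96% of all 11231 genes. The 30 were chosen by their ectoderm-like values, which enter this test, so the count is a description and supports nothing. Each value is the difference of the log2 effects, ectoderm-like minus XEN-like. Positive values were found for matrix genes: Col3a1 at 8.04 (adjusted p = 0.000272), Bgn at 8.10, Ogn at 16.24, Mgp at 8.29, Aspn at 8.95 and Col6a2 at 10.59. Negative values were found for Bex4 at -8.15, Ednrb at -12.18, Grb10 at -5.78, Spink3 at -5.77, Krt18 at -8.81, Bex2 at -5.10, Bex1 at -2.48, Ttr at -9.28, Fgf15 at -11.58 and Nepn at -14.65. Krt18 went from 197 and 151 UMIs in sorted XEN-like cells to 785 in their culture, and from 102 and 266 to 2 on the ectoderm-like side. Bex1 was lower in both cultures (309, 199 and 26 UMIs on the XEN-like side) and more so in the ectoderm-like one. Ogn, Col6a2, Bgn, Aspn, Mgp, Ednrb, Fgf15 and Nepn have at least 1 library at 0 among the 6 compared, so the sizes of their differences depend on the prior count and are no bounds.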

How the results depend on the processing

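No paired analysis was possible because the culture carries no replicate number, so the groups share fewer than 2 numbers. Under the fold rule, 1176 genes were higher and 752 lower. Relative to Gapdh these were 3274 and 258 (92.7% of calls higher instead of 61.0%), relative to Actb 864 and 1259 (40.7%), with at least 100 UMIs 487 and 369, and at 4-fold 524 and 336. Leaving out a sorted replicate gave 1505 to 1521 higher and 881 to 1298 lower, the 1298 without replicate 2. By edgeR, 672 were higher and 413 lower, with 1053 and 753 from the 3 libraries alone, 749 lower without a filter, and 303 and 213 by DESeq2. Leaving out a library gave 310 to 832 higher and 147 to 549 lower. In single cells with more than 4000 UMIs, any of the 4 matrix markers was in 18.6%. No call of the genes described turned its direction. The calls of all 30 marker and ranked genes were kept under the fold rule in the 6 settings tried for single genes. These genes were picked for the most extreme ratios among those already called, so this follows from the choice and supports nothing. Of list members, 152 of 170 called higher and only 56 of 106 called lower kept their call. Postn, Dcn, Col3a1, Col1a1, Trp53, Sox2, Egfr, B2m, Lgals1 and H19 passed edgeR in 10 of 10 settings. Of other genes described, edgeR's call was lost without sorted replicate 1 or without replicate 2 for Aldh1a3, Cdkn2a, Col18a1, Copg2, Foxc1, Ifit1, Lama4, Mest, P4hb, Pax6 and Zeb1. It was lost without replicate 1 alone for Dppa5a, Grn, Hoxa10, Ifitm1, Lin28b, Mkx, Stra6 and Vim, and without replicate 2 alone for Alpl, Bax, Dab2, Dusp6, Egr1, Eif2s3y, Etv4, Fn1, Irf1, Lama1, Lox, Mcm7, Meox1, Ncam1, Ttr and Uty. The single culture, and the minimum of 20 UMIs, limit what could be seen.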
